A study of Mus musculus with 3 samples.

Results

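The genes examined here are 10 mouse genes that carry and end the cone light response, out of 31053 genes in the deposited table: Gnat2, Gnb3 and Gngt2 for the cone transducin subunits, Arr3 for cone arrestin, and Grk1, Rgs9, Guca1a, Gucy2e, Rcvrn and Pdc, which switch the response off or reset it. They were chosen by name and known role, and each is described in the wells of 3 libraries. The libraries were made from single GFP-positive cells sorted from papain-dissociated mouse retina with a viability dye, 1 plate and so 1 library for each genotype, and all are labelled as cones of postnatal day 12. The Cnga3-/- library comes from mice without a working Cnga3, a subunit of the cone cyclic nucleotide-gated channel. The Pde6ccpfl1 library comes from mice with the cpfl1 mutation of Pde6c, the catalytic subunit of the cone phosphodiesterase. The wildtype library carries the library name Chrnb4-GFP, after a reporter that marks cones. The mutant libraries are named Cnga3-GFP and Pde6c-GFP. What drives GFP in them, how many animals gave each plate and their sex are not given in the sources used here. The well names carry a further tag, P08 in Cnga3-/-, P10 in Pde6ccpfl1 and P11 in wildtype, which the labels do not explain. Should it give an age in days, it goes against the labelled day 12, and age and genotype cannot be told apart in any ratio between the libraries.

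A light-activated cone opsin exchanges the nucleotide on transducin, a G protein of an alpha, a beta and a gamma subunit. The freed alpha subunit turns on phosphodiesterase, cyclic GMP falls and the cyclic nucleotide-gated channel closes. The response ends when the opsin is phosphorylated by a receptor kinase and capped by arrestin, when transducin hydrolyses its GTP with the help of an RGS protein, and when guanylate cyclase, driven by its calcium-sensing activators, restores cyclic GMP. The transducin subunits and Arr3 are cone forms whose rod counterparts are separate genes. In mice the recovery genes serve rods as well as cones.

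The table held 208 wells, and 183 were kept, in which 500 or more genes were counted and mitochondrially encoded genes took no more than 30% of the counts. These were 70 of 76 Cnga3-/- wells, 61 of 71 Pde6ccpfl1 wells and 52 of 61 wildtype wells. Summed counts over kept wells were 335499 in Cnga3-/-, 295011 in Pde6ccpfl1 and 273080 in wildtype, with a median per well of 4056.5, 3796 and 4895 counts. With 1 library per genotype there was no replicate and no test, and wells are not replicates of a genotype. Genotype and plate cannot be told apart. All intervals are 95% intervals of the counting error alone. The table counts whole genes, so no exon or isoform is resolved. The targeted genes gave no check of the labels, since counts cover the whole gene: Cnga3 had 13 counts in Cnga3-/-, 3 in Pde6ccpfl1 and 22 in wildtype, of which 6, 2 and 13 lay at well position A06, and Pde6c had 5, 2 and 0. The label of cones was checked against 8 cone markers that are not among the 10 genes. After thinning each well to 1400 counts, a count of any of them was found in 34 of 65 Cnga3-/- wells, 29 of 54 Pde6ccpfl1 wells and 10 of 48 wildtype wells. In the wildtype library 3 of the 8 were at 0, among them Opn1sw, the short-wavelength cone opsin. Their summed level was 590 CPM in Cnga3-/-, 420 CPM in Pde6ccpfl1 and 190 CPM in wildtype. The markers thus do not bear out the label for most wildtype wells, or for the mutant wells without such a count. With a stricter filter (at least 1000 genes, at most 15% mitochondrially encoded counts) before thinning, the wells with a count numbered 18 of 54, 20 of 42 and 7 of 41. Without that filter, any of 12 rod markers had a count in 43 of 65, 35 of 54 and 22 of 48 thinned wells.

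Counts of a gene recurred at one well position on different plates. Over the 43 positions kept in all 3 libraries, 2563 genes had 3 or more counts in a single highest well of every library, and for 2197 of them (85.7%) that well had the same position on all 3 plates. Gucy2e, at position E07, is one of these genes, and Grk1 was highest at G07 on every plate, tied with A02 in Pde6ccpfl1. The cause of the recurrence was not tested. Results were therefore also computed with the position that holds most counts of a gene over the 3 libraries left out for that gene on every plate, which removes 32.3% of all counts in Cnga3-/-, 30.6% in Pde6ccpfl1 and 29.1% in wildtype. This alternative was chosen after seeing the data. For Gnat2, Gnb3, Gngt2 and Arr3 the positions with a count in both mutants numbered 2, 2, 7 and 0 of 61, beside 2.75, 3.67, 6.82 and 0.836 from the product of the shares of wells. For Rcvrn they numbered 5, beside 2.13. These products take no account of well depth.

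Promoter sequences were taken from RefSeq (GRCm38.p6), which held 7 of the 10 genes. The 250 bases before the annotated start of 4 of them are shown 5′ to 3′ on the gene's own strand, because they stand for the 4 ways in which the genes' counts lay between libraries: Arr3 high in Pde6ccpfl1, Rgs9 high in Cnga3-/-, Guca1a high in both mutants, and Grk1 present in all 3. Capitals mark TAATCC or TAATCT on either strand (GGATTA or AGATTA as printed), the core letters bound by the photoreceptor factor Crx. The windows are chrX:100605247-100605496 on the plus strand for Arr3, chr11:109298182-109298431 on the minus strand for Rgs9, chr17:47400607-47400856 on the minus strand for Guca1a and chr8:13404831-13405080 on the plus strand for Grk1.
Arr3: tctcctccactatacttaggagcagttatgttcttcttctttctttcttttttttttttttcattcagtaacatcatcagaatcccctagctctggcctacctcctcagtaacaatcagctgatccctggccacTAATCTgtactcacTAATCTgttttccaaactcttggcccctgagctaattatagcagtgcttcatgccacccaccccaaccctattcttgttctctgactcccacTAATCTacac
Rgs9: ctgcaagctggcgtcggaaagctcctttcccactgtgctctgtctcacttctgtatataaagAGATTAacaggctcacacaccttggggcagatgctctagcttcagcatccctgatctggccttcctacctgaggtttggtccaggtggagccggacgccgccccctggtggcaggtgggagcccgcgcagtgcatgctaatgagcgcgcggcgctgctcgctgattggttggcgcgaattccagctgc
Guca1a: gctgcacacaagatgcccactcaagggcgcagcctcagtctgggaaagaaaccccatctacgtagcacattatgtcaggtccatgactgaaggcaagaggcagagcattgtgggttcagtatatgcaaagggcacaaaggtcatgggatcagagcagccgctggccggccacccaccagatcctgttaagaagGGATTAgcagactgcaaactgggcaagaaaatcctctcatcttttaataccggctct
Grk1: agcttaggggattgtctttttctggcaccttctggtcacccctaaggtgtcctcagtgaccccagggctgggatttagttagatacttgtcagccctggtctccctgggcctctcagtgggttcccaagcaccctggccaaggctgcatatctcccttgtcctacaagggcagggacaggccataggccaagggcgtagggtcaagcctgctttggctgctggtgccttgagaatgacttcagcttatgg

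The Arr3 window held 3 matches, all TAATCT on the gene's strand, whose first bases lie 116, 102 and 10 bases before the start. The Rgs9 window held 1, TAATCT on the other strand, 188 bases before the start, and the Guca1a window held 1, TAATCC on the other strand, 57 bases before it. The Grk1 and Pdc windows held none, while those of Gnat2 and Gucy2e, which overlap annotated exons and are not printed, held 1 each. Of 32851 such windows in the RefSeq table, 12.8% held at least 1 match and 1.40% held 2 or more. A match is a description of letters and is not a measured site, and no binding was measured here.

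Cone transducin was counted in both mutant libraries and almost not in wildtype. Levels are CPM, the counts of a gene over kept wells scaled to the total of the library. Such a sum does not separate fewer wells with a gene from fewer counts per well, so the wells are given beside it. Gnat2 (chr3:108092789-108101432, plus strand, in the GENCODE M21 annotation of GRCm38), the alpha subunit, had 20 counts in Cnga3-/- (59.6 CPM, Poisson interval 36.4 to 92.1), 20 in Pde6ccpfl1 (67.8 CPM, 41.4 to 105) and 0 in wildtype (0 CPM, up to 13.5). The counts lay in 13 of 70, 14 of 61 and 0 of 52 wells, and the 3 counts used as the limit for a 0 equal 5.77% of the wildtype wells. With the wildtype library set to a floor of 3 counts, the Gnat2 level of Cnga3-/- was at least 5.43-fold higher, and that of Pde6ccpfl1 at least 6.17-fold higher. Between the mutants no difference in Gnat2 was detectable, with a log2 ratio of Pde6ccpfl1 over Cnga3-/- of 0.19 (-0.78 to 1.16).

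Gnb3 (chr6:124834240-124840275, minus strand), the beta subunit of cone transducin, had 30 counts in 19 Cnga3-/- wells, 16 in 14 Pde6ccpfl1 wells and 1 in 1 wildtype well. Its level was 24.4-fold higher in Cnga3-/- than in wildtype (4.06 to 996) and 14.8-fold higher in Pde6ccpfl1 than in wildtype (2.30 to 621). The single wildtype count makes the upper limits very wide. Between the mutants the log2 ratio of Pde6ccpfl1 over Cnga3-/- was -0.72 (-1.70 to 0.20), an interval that includes no difference.

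Gngt2 (chr11:95837216-95845734, plus strand), the gamma subunit, had the highest level per kilobase of the 10 genes in Pde6ccpfl1. It had 22 counts in 19 Cnga3-/- wells, 43 in 26 Pde6ccpfl1 wells and 0 in wildtype, which puts Cnga3-/- at least 5.97-fold and Pde6ccpfl1 at least 13.3-fold above wildtype. It also differed between the mutants, at 146 CPM in Pde6ccpfl1 (105 to 196) and 65.6 CPM in Cnga3-/- (41.1 to 99.3), a 2.22-fold higher level (1.30 to 3.90). The highest Pde6ccpfl1 well, at position C11, held 7 of the 43 counts, and without that position the log2 ratio of Pde6ccpfl1 over Cnga3-/- was 0.86 (0.05 to 1.69), under 2-fold. Of its exon bases, 234 are also covered by Abi3 on the opposite strand, whose own count was 0 in all 3 libraries.

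The 3 subunits were seldom counted in one well. At least 1 subunit had a count in 33 of 70 Cnga3-/- wells, 38 of 61 Pde6ccpfl1 wells and 1 of 52 wildtype wells. At least 2 had a count in 16, 15 and 0 of these wells, and all 3 in 2, 1 and 0. Gnat2 and Gnb3 shared 9 Cnga3-/- wells, which is 9 of the 13 wells with Gnat2 and 9 of the 19 with Gnb3, the most of any pair in that library, beside 3.53 wells from the product of the shares. In Pde6ccpfl1 the same pair shared 2 wells, of 14 and 14, beside 3.21. There Gngt2 shared 8 wells with Gnb3, of 26 and 14 wells, and 8 with Grk1, of 26 and 17, beside 5.97 and 7.25 from the products. The wells were not thinned here, and the products take no account of depth. Kept wells ran from 1134 to 16935 counts in Cnga3-/- and from 1106 to 16039 in Pde6ccpfl1, and the part of depth in the shared wells was not tested.

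Arr3 (chrX:100605497-100618493, plus strand), which caps the phosphorylated cone opsin, had the widest gap between the mutant libraries among the 4 transducin and arrestin genes. It had 5 counts in Cnga3-/- (14.9 CPM, 4.84 to 34.8), 27 in Pde6ccpfl1 (91.5 CPM, 60.3 to 133) and 3 in wildtype (interval 2.27 to 32.1 CPM). Only the Pde6ccpfl1 library stood above the other libraries, whose intervals overlap. Arr3 was 8.33-fold higher in Pde6ccpfl1 than in wildtype (2.56 to 42.9) and 6.14-fold higher in Pde6ccpfl1 than in Cnga3-/- (2.33 to 20.4). For Cnga3-/- over wildtype the ratio was 1.36 (0.264 to 8.74), so no difference was detectable at this depth. Arr3 had a count in 17 of 61 Pde6ccpfl1 wells (27.9%, Clopper-Pearson interval 17.1 to 40.8), 3 of 70 Cnga3-/- wells (4.29%, 0.893 to 12.0) and 2 of 52 wildtype wells (3.85%, 0.469 to 13.2). No Pde6ccpfl1 well held more than 4 counts. Across 11 alternative settings the log2 ratio of the Arr3 level of Pde6ccpfl1 over Cnga3-/- lay between 2.35 and 3.59. The difference in the share of wells was less stable. With wells thinned to 1400 counts, Arr3 was found in 8 of 54 Pde6ccpfl1 wells (14.8%, 6.62 to 27.1) and 1 of 65 Cnga3-/- wells (1.54%, 0.0389 to 8.28). When the stricter well filter was used before thinning, it was found in 2 of 42 Pde6ccpfl1 wells (4.76%) and 2 of 54 Cnga3-/- wells (3.70%), so no difference was detectable.

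**Figure D1:**
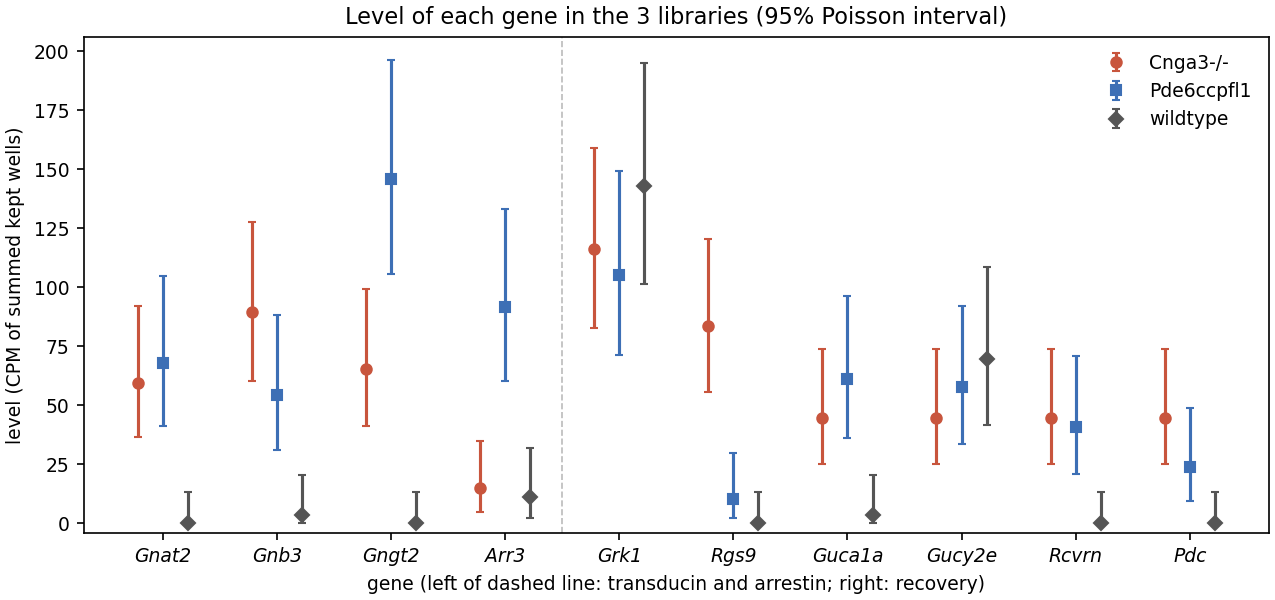
Level of each of the 10 genes in CPM of the summed kept wells, with the 95% Poisson interval as bars, in Cnga3-/- (circles), Pde6ccpfl1 (squares) and wildtype (diamonds). Wildtype has at most 3 counts for 8 of the genes and lies at 143 and 69.6 CPM for Grk1 and Gucy2e, while Arr3 stands out in Pde6ccpfl1 and Rgs9 in Cnga3-/-.

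The recovery genes did not share one pattern. Grk1 (chr8:13405081-13421951, plus strand), the receptor kinase that phosphorylates opsins in mouse rods and cones, was counted in all libraries with overlapping intervals, with 39 counts in Cnga3-/- (116 CPM, 82.7 to 159), 31 in Pde6ccpfl1 (105 CPM, 71.4 to 149) and 39 in wildtype (143 CPM, 102 to 195). Over wildtype, Cnga3-/- had a log2 ratio of -0.30 (-0.98 to 0.38) and Pde6ccpfl1 one of -0.44 (-1.17 to 0.28), so a level 2-fold higher in either mutant lies outside these limits. Scaled to ribosomal protein counts the ratios were -1.13 and -1.42. Wells with a Grk1 count numbered 19 of 70 in Cnga3-/-, 17 of 61 in Pde6ccpfl1 and 16 of 52 in wildtype. The counts were uneven and recurred by position: the well at G07 held 15 of the 39 Cnga3-/- counts, 8 of the 31 Pde6ccpfl1 counts and 8 of the 39 wildtype counts. Without that position 24, 23 and 31 counts remained, and over wildtype the log2 ratio was then -0.60 for Cnga3-/- (-1.43 to 0.22) and -0.51 for Pde6ccpfl1 (-1.36 to 0.31).

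Gucy2e (chr11:69218117-69237036, minus strand), the guanylate cyclase that remakes cyclic GMP, was likewise counted in all 3 libraries, with 15 counts in Cnga3-/-, 17 in Pde6ccpfl1 and 19 in wildtype. Its level was 44.7 CPM in Cnga3-/-, 57.6 CPM in Pde6ccpfl1 (33.6 to 92.3) and 69.6 CPM in wildtype (41.9 to 109), and the intervals of all 3 overlap. Over wildtype the log2 ratio of Cnga3-/- was -0.64 (-1.72 to 0.42) and that of Pde6ccpfl1 -0.27 (-1.31 to 0.75). The highest well lay at E07 on every plate, with 5 of the 15 counts in Cnga3-/-, 4 of the 17 in Pde6ccpfl1 and 5 of the 19 in wildtype. Without it 10, 13 and 14 counts remained, with log2 ratios over wildtype of -0.71 (-2.05 to 0.56) and -0.19 (-1.40 to 1.01). In wildtype, 7 wells held both Grk1 and Gucy2e, of 16 and 14 wells with each, and these genes gave 58 of the 59 recovery counts of that library.

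Guca1a (chr17:47394558-47400584, minus strand), the calcium-sensing activator of the cyclase, was counted mainly in the mutant libraries, unlike Gucy2e. In both mutants Gucy2e was not separated from the level of olfactory receptor genes, given below. The contrast is therefore one of counts and does not show how the cyclase behaved. It had 15 counts in Cnga3-/-, 18 in Pde6ccpfl1 and 1 in wildtype. Its level was 12.2-fold higher in Cnga3-/- than in wildtype (1.88 to 514) and 16.7-fold higher in Pde6ccpfl1 than in wildtype (2.63 to 694), with a log2 ratio of Pde6ccpfl1 over Cnga3-/- of 0.45 (-0.62 to 1.54). The counts lay in 10 Cnga3-/- wells, 12 Pde6ccpfl1 wells and 1 wildtype well, with at most 3 in one well.

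Rcvrn (chr11:67695326-67703333, plus strand), recoverin, the calcium sensor that restrains Grk1, had 15 counts in 13 Cnga3-/- wells, 12 in 10 Pde6ccpfl1 wells and 0 in wildtype. Against the floor, Cnga3-/- stood at least 4.07-fold and Pde6ccpfl1 at least 3.70-fold above wildtype. Pdc (chr1:150319417-150333906, plus strand), phosducin, which binds the beta and gamma subunits of transducin, had 15 counts in 9 Cnga3-/- wells, 7 in 7 Pde6ccpfl1 wells and 0 in wildtype, at least 4.07-fold and at least 2.16-fold higher than wildtype. Both genes were counted in the mutant libraries alone, where their differences lay within counting error: the log2 ratio of Pde6ccpfl1 over Cnga3-/- was -0.14 (-1.36 to 1.06) for Rcvrn and -0.91 (-2.45 to 0.47) for Pdc.

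Rgs9 (chr11:109225355-109298129, minus strand), the protein that speeds the GTP hydrolysis of transducin, had the opposite order to Arr3 between the mutants. It had 28 counts in Cnga3-/- (83.5 CPM, 55.5 to 121), 3 in Pde6ccpfl1 (10.2 CPM, 2.10 to 29.7) and 0 in wildtype (up to 13.5 CPM). Only Cnga3-/- stood above the other libraries. Rgs9 was 8.21-fold lower in Pde6ccpfl1 than in Cnga3-/- (2.54 to 42.2), at least 7.60-fold higher in Cnga3-/- than in wildtype, and too low in Pde6ccpfl1 and wildtype for a ratio. It had a count in 3 of 61 Pde6ccpfl1 wells (4.92%, 1.03 to 13.7), 13 of 70 Cnga3-/- wells (18.6%, 10.3 to 29.7) and 0 of 52 wildtype wells. No well held more than 5 counts in Cnga3-/-, or more than 1 in Pde6ccpfl1, but 4 Cnga3-/- wells held 3 or more. With wells thinned to 1400 counts, Rgs9 was found in 7 of 65 Cnga3-/- wells (10.8%, 4.44 to 20.9) and 1 of 54 Pde6ccpfl1 wells (1.85%, 0.0469 to 9.89). These intervals overlap. Between the mutants the log2 ratio stayed between -4.24 and -2.44 over 11 alternative settings.

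**Figure D2:**
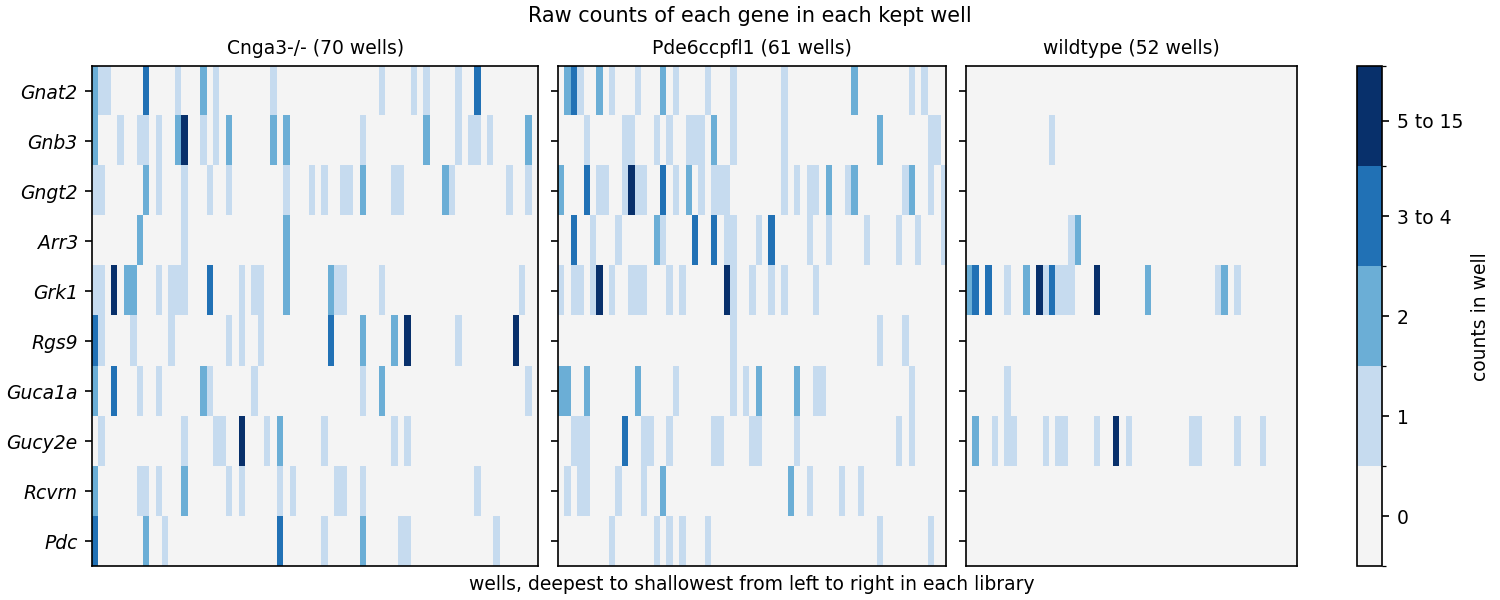
Raw counts of each of the 10 genes (rows) in each kept well (columns, deepest to shallowest from left to right), for 70 Cnga3-/-, 61 Pde6ccpfl1 and 52 wildtype wells, with the count in steps from 0 to 15. The wildtype panel is empty for 5 genes and filled mostly in the rows of Grk1 and Gucy2e. In the mutant panels most wells with a gene hold 1 or 2 of its counts, with up to 15 for Grk1 in Cnga3-/-.

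Set against all genes, the members were compared where the pair of libraries gave a gene 10 counts or more, and called when at least 2-fold apart. In Cnga3-/- over wildtype, 7 of 9 compared members were at least 2-fold higher and 0 lower, while over all 7739 genes 16.1% passed that size upward and 15.1% downward. In Pde6ccpfl1 over wildtype, 6 of 8 were higher and 0 lower, beside 15.5% and 17.0% of 7289 genes. The median log2 ratio was 2.44 over the 9 members and -0.13 over all genes in the first comparison, and 2.84 over the 8 members and -0.11 over all genes in the second. These counts and medians are no support on their own, since a gene at or near 0 in wildtype entered only through its mutant counts and had to differ: 5 members in the first comparison and 3 in the second are at a bound. Arr3 was not compared in Cnga3-/- over wildtype, with 8 counts in the pair, nor were Pdc and Rgs9 in Pde6ccpfl1 over wildtype, with 7 and 3. Without the top well position of each gene the counts were again 7 of 9 and 6 of 8 higher and 0 lower, beside 14.7% and 14.4% of all genes higher. The 2 comparisons share the wildtype library.

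In Pde6ccpfl1 over Cnga3-/-, all 10 members were compared, with a median log2 ratio of 0.02 beside -0.01 over 7850 genes. Gngt2 and Arr3 were at least 2-fold higher and Rgs9 at least 2-fold lower, beside 10.1% and 14.2% of all genes. The number of such members, 2 of 10 and 1 of 10, is near the share over all genes. Without the top well position of each gene Gngt2 was no longer past 2-fold, which left 1 of 10 higher, beside 11.1% of all genes. The other 7 genes had intervals that include no difference.

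The sums of the gene groups gave the same division. Transducin and arrestin together had 77 counts in Cnga3-/-, 106 in Pde6ccpfl1 and 4 in wildtype, 3 of the 4 from Arr3, which is 15.7-fold higher in Cnga3-/- than in wildtype (5.88 to 59.0) and 24.5-fold higher in Pde6ccpfl1 than in wildtype (9.30 to 91.7). Pde6ccpfl1 was 1.57-fold above Cnga3-/- (1.16 to 2.13), and without Arr3, left out after its values were seen, the ratio was 1.25 (0.895 to 1.74). The 6 recovery genes had 127 counts in Cnga3-/-, 88 in Pde6ccpfl1 and 59 in wildtype. Their sum was 1.75-fold higher in Cnga3-/- than in wildtype (1.28 to 2.43) and 1.38-fold higher in Pde6ccpfl1 (0.982 to 1.95), but scaled to the summed counts of ribosomal protein genes the log2 ratios turned to -0.028 and -0.51. That scaling moved the median log2 ratio of all genes to -0.96 in Cnga3-/- over wildtype and -1.09 in Pde6ccpfl1 over wildtype, because ribosomal protein genes themselves stood at 1884 CPM in Cnga3-/-, 2071 in Pde6ccpfl1 and 1055 in wildtype. The transducin and arrestin sum kept its direction under this scaling, with log2 ratios of 3.13 and 3.64, and without the top well position of each gene it had 3.86 (2.44 to 5.77) and 4.49 (3.09 to 6.39). Without Grk1 and Gucy2e, left out after their values were seen, the recovery sum was 73 counts in Cnga3-/-, 40 in Pde6ccpfl1 and 1 in wildtype.

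**Figure D3:**
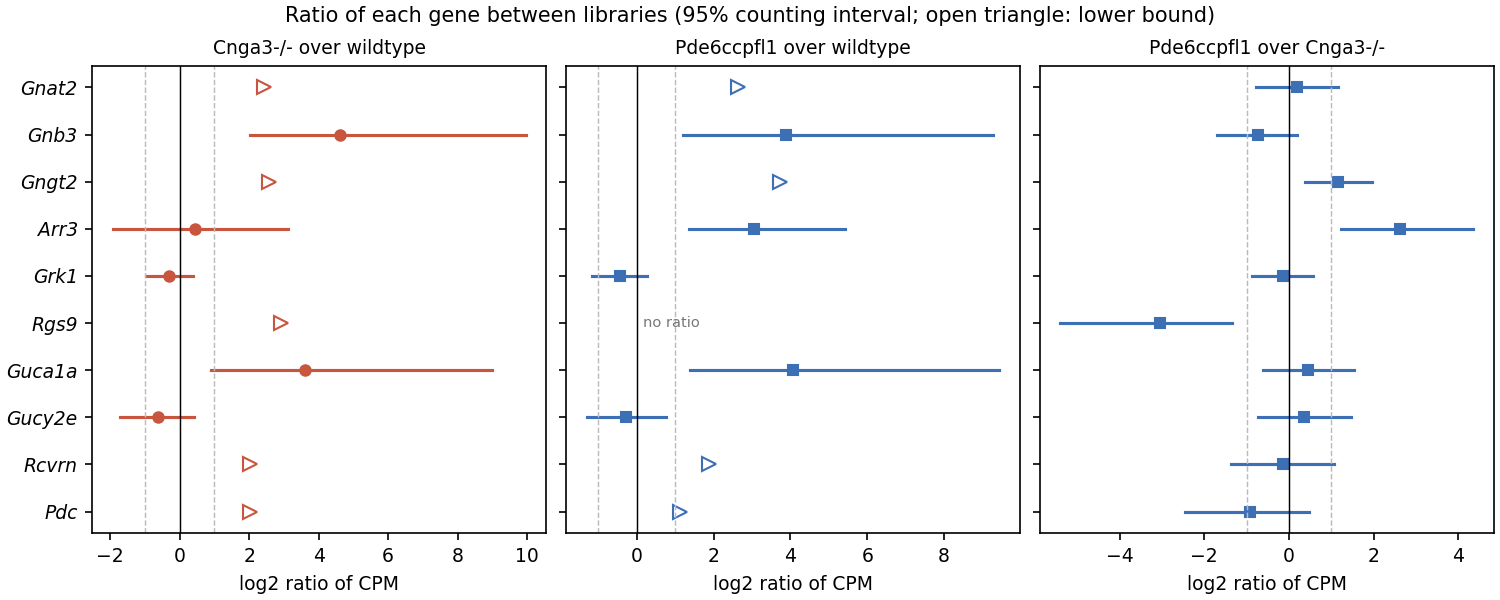
Log2 ratio of CPM of each of the 10 genes for Cnga3-/- over wildtype, Pde6ccpfl1 over wildtype and Pde6ccpfl1 over Cnga3-/-, with 95% counting intervals as lines, lower bounds as open triangles where the second library had 0 counts, and dashed lines at 2-fold. Grk1 and Gucy2e lie near 0 in all 3 panels, and in the third Gngt2 and Arr3 lie to the right and Rgs9, at -3.04, to the left.

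Genes were ordered by CPM per kilobase of annotated exon, since the exon length of the 10 genes runs from 873 bases for Guca1a to 9197 bases for Gucy2e. Whether counts rise with exon length in these libraries was not tested. The order depends on this division, as does the comparison with olfactory receptor genes below. By CPM alone, Grk1 led in Cnga3-/- at 116, and Guca1a stood at 44.7. In Cnga3-/- the order was Guca1a at 51.2 CPM per kilobase, Rcvrn at 43.0, Gngt2 at 34.9, Gnb3 at 34.0, Gnat2 at 19.9, Pdc at 13.3, Grk1 at 13.2, Rgs9 at 13.1, Arr3 at 6.33 and Gucy2e at 4.86. Each neighbour in that order overlaps the next in its counting interval. In Pde6ccpfl1 the order was Gngt2 at 77.7, Guca1a at 69.9, Rcvrn at 39.1, Arr3 at 38.9, Gnat2 at 22.6, Gnb3 at 20.6, Grk1 at 12.0, Pdc at 7.08, Gucy2e at 6.27 and Rgs9 at 1.59, again with overlapping neighbours.

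In wildtype, Grk1 led at 16.3 CPM per kilobase (11.6 to 22.2), above Gucy2e at 7.57 (4.55 to 11.8) with intervals that just overlap, then Arr3 at 4.66, Guca1a at 4.19 and Gnb3 at 1.39, with the other 5 at 0. Olfactory receptor genes, which serve smell and are a scale for genes with no known use in the retina, averaged 3.61 CPM per kilobase over 1134 genes in Cnga3-/-, 4.16 in Pde6ccpfl1 and 4.50 in wildtype. That scale was picked with earlier results of these data known. Transducin and arrestin together stood at 23.3 (18.4 to 29.1) in Cnga3-/-, 36.4 (29.8 to 44.1) in Pde6ccpfl1 and 1.49 (0.405 to 3.80) in wildtype, so they lay above the olfactory receptor level in both mutants and below it in wildtype. Several genes were not separated from that level upward. In Cnga3-/- these were Gucy2e at 4.86 (2.72 to 8.02) and Arr3 at 6.33 (2.05 to 14.8). In Pde6ccpfl1 they were Gucy2e at 6.27 (3.65 to 10.0), Pdc at 7.08 (2.85 to 14.6) and Rgs9 at 1.59 (0.33 to 4.65). In wildtype Grk1 lay clearly above it, the lower limit of Gucy2e was close to it, and none of the other 8 genes was separated from it upward.

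Shares of wells were compared at one depth. With each well thinned to 1400 counts, any of the 10 genes had a count in 30 of 65 Cnga3-/- wells (46.2%, 33.7 to 59.0), 32 of 54 Pde6ccpfl1 wells (59.3%, 45.0 to 72.4) and 10 of 48 wildtype wells (20.8%, 10.5 to 35.0). Shallower wells were left out, which were 5, 7 and 4 wells. Transducin and arrestin had a count in 18 of 65 Cnga3-/- wells (27.7%, 17.3 to 40.2), 22 of 54 Pde6ccpfl1 wells (40.7%, 27.6 to 55.0) and 0 of 48 wildtype wells (up to 7.40%). All wildtype wells with a count of any member thus had it from a recovery gene, and for the recovery genes the shares were 30.8% (19.9 to 43.4), 29.6% (18.0 to 43.6) and 20.8% (10.5 to 35.0), with overlapping intervals. Unthinned, any member had a count in 51 of 70 (72.9%), 53 of 61 (86.9%) and 24 of 52 (46.2%) wells.

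Few wells held many of the genes. Unthinned, 3 or more of the 10 had a count in 23 of 70 Cnga3-/- wells, 26 of 61 Pde6ccpfl1 wells and 1 of 52 wildtype wells, and none had one in 19, 8 and 28 wells. The most in one well was 8, 6 and 3. After thinning, 3 or more were found in 4 of 65, 2 of 54 and 0 of 48 wells, so at 1400 counts per well a set of several members was rarely sampled together.

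**Figure D4:**
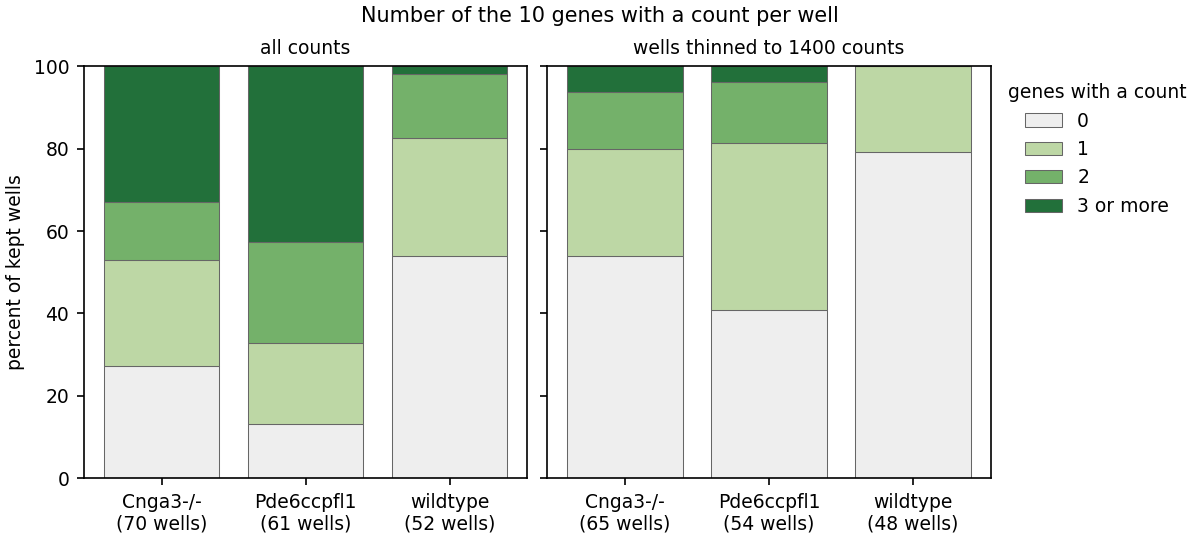
Percent of kept wells in which 0, 1, 2 or 3 or more of the 10 genes had a count, for Cnga3-/-, Pde6ccpfl1 and wildtype, with all counts on the left and wells thinned to 1400 counts on the right. Wildtype has the largest share of wells with none, 28 of 52 before thinning and 38 of 48 after it.

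Wells with an opsin count were set beside wells without one. In Cnga3-/-, transducin and arrestin stood at 316 CPM in the 43 wells with a count of Opn1sw or Opn1mw and at 61.4 CPM in the 27 wells without, with median depths of 4211 and 3922 counts. In Pde6ccpfl1 the values were 376 CPM in 31 wells and 336 CPM in 30 wells, at median depths of 5511 and 3259.5. Wells with an opsin count thus held 70 of the 77 such counts in Cnga3-/- and 65 of the 106 in Pde6ccpfl1, a difference that was not tested. The recovery genes stood at 397 CPM with and 342 CPM without an opsin count in Cnga3-/-, and at 237 and 385 CPM in Pde6ccpfl1. In wildtype 4 of 52 wells had an opsin count, and none of the 4 had a transducin or arrestin count.

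Other genes of the pathway were mixed. Of 12 partners, 8 could be compared in each comparison, and 3 were at least 2-fold higher and 1 lower in Cnga3-/- over wildtype (16.1% and 15.1% over all genes), 4 higher and 1 lower in Pde6ccpfl1 over wildtype (15.5% and 17.0%), and 0 higher and 2 lower in Pde6ccpfl1 over Cnga3-/- (10.1% and 14.2%). The partner lower than wildtype in both mutants was Cnga3 itself, with 13, 3 and 22 counts, of which 6, 2 and 13 lay at position A06. With the top well position of each gene left out, 3 of 8 were higher and 0 lower in Cnga3-/- over wildtype (14.7% and 16.3% over all genes). In Pde6ccpfl1 over wildtype 4 of 7 were higher and 1 lower (14.4% and 16.3%). The last comparison then had 1 of 7 higher and 0 lower (11.1% and 12.9%). Opn1sw had 63 counts in Cnga3-/-, 27 in Pde6ccpfl1 and 0 in wildtype, which puts the mutants at least 17.1-fold and at least 8.33-fold above wildtype. Between the mutants Opn1sw was 2.05-fold lower in Pde6ccpfl1 than in Cnga3-/- (1.29 to 3.35), the opposite side to Arr3 and Gngt2, and without position C07 the log2 ratio was -0.90 (-1.62 to -0.22). Opn1mw, the middle-wavelength opsin, had 17, 21 and 4 counts. Pde6h, the inhibitory subunit of cone phosphodiesterase, had 56, 43 and 16, a level 2.85-fold higher in Cnga3-/- than in wildtype (1.61 to 5.32) and 2.49-fold higher in Pde6ccpfl1 than in wildtype (1.37 to 4.73). Rd3, which binds and restrains the cyclase, had 12, 21 and 8 counts, 2.43-fold higher in Pde6ccpfl1 than in wildtype (1.03 to 6.34), with 4, 7 and 4 of these counts at position E07. Gnb5, the beta subunit that pairs with Rgs9, had 33, 44 and 25 counts, of which 17, 15 and 9 lay at position H10. Its log2 ratio of Pde6ccpfl1 over Cnga3-/- was 0.60 (-0.08 to 1.30), and 1.01 (0.08 to 1.99) without H10. Rgs9bp, the membrane anchor of Rgs9, had 4, 4 and 1 counts, too few to set beside the difference of Rgs9. Guca1b, the other cyclase activator, had 0 counts in all 3 libraries.

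The rod counterparts of the transducin subunits and of Arr3 also had more counts in the mutant libraries. Gnat1, rod transducin alpha, had 39 counts in Cnga3-/-, 10 in Pde6ccpfl1 and 4 in wildtype, Gnb1 and Gngt1, its beta and gamma subunits, had 46, 29 and 5 and 15, 16 and 1, and Sag, rod arrestin, had 36, 30 and 21. Their sum was 3.57-fold higher in Cnga3-/- than in wildtype (2.40 to 5.46) and 2.54-fold higher in Pde6ccpfl1 than in wildtype (1.66 to 3.96). Sag gave 21 of the 31 wildtype counts in that sum. Whether the counts of these genes came from rods, cones or other cells was not tested. Between the mutants, Gnat1 was 3.43-fold lower in Pde6ccpfl1 than in Cnga3-/- (1.68 to 7.70). All 12 rod markers had counts in every library, with sums of 894 CPM in Cnga3-/-, 749 CPM in Pde6ccpfl1 and 421 CPM in wildtype, and none was at 0. Muller glia markers lay the other way, with 92.4 CPM in Cnga3-/-, 74.6 CPM in Pde6ccpfl1 and 157 CPM in wildtype over 7 genes, of which 0, 1 and 1 were at 0. Their ratio to wildtype was 0.587 in Cnga3-/- (0.357 to 0.953) and 0.474 in Pde6ccpfl1 (0.270 to 0.809), and without the top well position of each gene the log2 ratios were -0.44 (-1.28 to 0.38) and -0.85 (-1.81 to 0.06). Sums of endothelium (131, 159 and 190 CPM), horizontal (289, 325 and 385) and amacrine markers (95.4, 88.1 and 106) were also lower in both mutants. Those of bipolar (152, 122 and 110 CPM), microglia (44.7, 37.3 and 36.6) and pigment epithelium markers (29.8, 44.1 and 14.6) were higher in both, and retinal ganglion markers lay on both sides. With the top well position of each gene left out, the endothelium ratio to wildtype was 0.575 in Cnga3-/- (0.346 to 0.943) and 0.814 in Pde6ccpfl1 (0.510 to 1.29). For bipolar, horizontal, amacrine, retinal ganglion, microglia and pigment epithelium markers the intervals of both ratios then included no difference. The ratio turned to 0.810 for microglia markers in Pde6ccpfl1 and to 1.06 for amacrine markers in Cnga3-/-. The part of these cell types in the ratios of the 10 genes was not tested. Since the recovery genes are shared by rods and cones, their counts cannot be assigned to one of the cell types, and the part of rod RNA in them was not tested. Sag did not show the difference of Arr3 between the mutants: it had a log2 ratio of Pde6ccpfl1 over Cnga3-/- of -0.08 (-0.83 to 0.66), against 2.62 for Arr3.

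Widely expressed relatives of the 10 genes were also compared. Of 34 relatives, 15 could be compared in Cnga3-/- over wildtype, with 1 at least 2-fold higher and 3 lower (16.1% and 15.1% over all genes), and 14 in Pde6ccpfl1 over wildtype, with 1 higher and 5 lower (15.5% and 17.0%). Numbers this small are no result about the relatives. Their median log2 ratio was -0.30 and -0.73, beside -0.13 and -0.11 over all genes. With the top well position of each gene left out, 0 of 13 were higher and 4 lower in Cnga3-/- over wildtype. In Pde6ccpfl1 over wildtype, 0 of 10 were higher and 4 lower. Over all genes 16.3% were lower in each of these comparisons, and the numbers are again too small for a result. Rgs6, of the same RGS family as Rgs9, had 73 counts in Cnga3-/-, 50 in Pde6ccpfl1 and 176 in wildtype, 2.96-fold (2.24 to 3.95) and 3.80-fold (2.76 to 5.32) lower than wildtype. Position C04 held 28, 16 and 57 of them, and without it Rgs6 was 3.10-fold (2.18 to 4.47) and 3.70-fold (2.51 to 5.59) lower. Ncs1, a calcium sensor of the recoverin family, had 15, 16 and 2 counts. Its log2 ratio was 2.61 for Cnga3-/- over wildtype (0.51 to 5.78) and 2.89 for Pde6ccpfl1 over wildtype (0.80 to 6.05). These rest on position H03, which held 9 counts in each mutant: without it 6, 7 and 2 counts were left, under the minimum for a comparison. Gnb2, a widely expressed beta subunit, had 4, 1 and 16, and Grk2, a widely expressed receptor kinase, 13, 16 and 24. Position C07 held 1, 0 and 8 of the Gnb2 counts. Gnao1, Rgs11 and Npr2 were also past 2-fold lower in Pde6ccpfl1 over wildtype, with 5, 1 and 3 counts in Pde6ccpfl1 against 10, 9 and 7 in wildtype, and only the interval of Rgs11 excludes no difference. Position C08 held 4 of the 9 wildtype Rgs11 counts. Without it 1 and 5 counts were left, under the minimum, with a log2 ratio of -2.40 (-7.97 to 0.76) that includes no difference. In Pde6ccpfl1 over Cnga3-/-, 12 relatives could be compared. Grk6, another receptor kinase, was past 2-fold higher, with 47 counts in Pde6ccpfl1 and 25 in Cnga3-/-, of which 21 and 11 lay at position B09. Gnb4 and Rgs11 were past 2-fold lower, with 7 and 1 counts in Pde6ccpfl1 against 16 and 10 in Cnga3-/-, and the log2 ratio of Gnb4, -1.01 (-2.53 to 0.35), includes no difference.

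Across 119 mutant wells with at least 1400 counts, the chance of a count of transducin or arrestin after thinning was correlated with that of 6200 other genes, with plate means removed. The highest Pearson r were 0.355 for Fermt1, 0.338 for Dhx29, 0.328 for C130073E24Rik, 0.318 for Hpdl and 0.314 for Malat1, with a median of -0.005 and a 95th percentile of 0.177. Pde6h ranked 13 (0.290) and Opn1sw 43 (0.261). These are weak correlations in sparse counts from wells that share 2 plates and many positions, and they are given as a description only. Without the top well position of each gene the 5 values were 0.332, 0.320, 0.285, 0.215 and 0.296.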

How the data were processed

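Counts per gene and well were deposited by the authors as a single table of raw counts, with no normalization. Per the submitters' processing notes, featureCounts and the build GRCh38 were used, with no version of the tool. That build is human while the table uses mouse gene symbols, 98.1% of them found in GENCODE M21 (GRCm38), so coordinates and exon lengths were taken from GENCODE M21. Per the labels' protocols, libraries followed an adapted SMARTseq2 and MARS-seq method. The sources used here do not give the aligner, the molecular identifiers or a cell filter, so counts may not be independent molecules. The strand setting of the counting is not given either.

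Column names assigned the wells to libraries. Wells with at least 500 genes counted and at most 30% mitochondrially encoded counts were kept, and no doublets were called. Counts were summed per library and scaled to CPM. Ratios of CPM have exact 95% intervals conditional on the total count, levels have Poisson intervals and shares have Clopper-Pearson intervals. Where a library had 0 counts a floor of 3 was used, and no ratio was given where both libraries were at or under it. Genes with at least 10 counts over the pair were compared. The interval calculation was tested on simulated independent Poisson counts, the model that it assumes. Counts that gather in single wells or recur by position were not simulated, so the intervals were not tested for them. The genes, the lists and the olfactory receptor scale were chosen with earlier results of these data known. All 10 genes are named, and partners, rod counterparts and relatives where they have at least 10 counts over the 3 libraries and are a counterpart or at least 2-fold apart, together with the 5 genes of highest correlation. Rgs9bp, Guca1b, Pde6c and Abi3 are named outside that rule, after their values were seen. Alternatives were the well filter, the mean of CPM over wells, TMM factors (edgeR 4.0.16), median-of-ratios factors, CPM without mitochondrial and the 20 most abundant genes, thinned wells, wells without the 5 deepest and other count minimums. Ribosomal scaling, leaving out the well with most counts of the 10 genes, leaving out for each gene the well position with most of its counts and leaving out Grk1 and Gucy2e were added after seeing the data. Python 3.11.15 with scipy 1.17.1 and R 4.3.3 were used.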

Additional observations from a re-analysis of the deposited data

Results flagged for a closer look

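Pde6ccpfl1 wells left out by the filter held counts of the 10 genes above the level of the kept wells of that plate and of the wildtype plate. The kept wells had 658 CPM of these genes in Pde6ccpfl1 and 608 CPM in Cnga3-/-. In the 10 Pde6ccpfl1 wells left out there were 14 such counts among 8245 (1698 CPM), spread over 5 wells, and 7 of the 14 were Arr3, from 3 wells. The 6 Cnga3-/- wells left out held 3 such counts among 4749 (632 CPM), and the 9 wildtype wells left out held 1 among 7174 (139 CPM), beside 231 CPM in the kept wildtype wells. The Cnga3-/- and wildtype numbers are too small to compare. With no filter on wells the log2 ratio of Arr3 in Pde6ccpfl1 over Cnga3-/- was 2.93.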

How the results depend on the processing

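With 1 library per genotype no replicate could be left out. No paired analysis was possible because each genotype has 1 library and no value comes from a test. With wells thinned to 1400 counts, the wildtype transducin and arrestin sum was 0, so its log2 ratio became a bound of 2.44 for Cnga3-/- and 3.15 for Pde6ccpfl1 over wildtype, and the number of members at least 2-fold higher was 1 and 2 in place of 7 and 6. Over all genes 451 of 2446 and 400 of 2194 were then at least 2-fold higher. Thinning also left 0 members at least 2-fold lower in Pde6ccpfl1 over Cnga3-/-, beside 372 of 2566 genes. With at least 50 counts over the pair, 0 members were higher in either comparison with wildtype, and in Pde6ccpfl1 over Cnga3-/- 1 was higher and 0 lower, since fewer genes were compared. Scaling to ribosomal protein counts gave the recovery sum a log2 ratio of -0.028 in Cnga3-/- and -0.51 in Pde6ccpfl1 over wildtype, and made 2 members at least 2-fold lower in each comparison with wildtype and in Pde6ccpfl1 over Cnga3-/-. Under that scaling 3762 of 7739 genes were at least 2-fold lower in Cnga3-/- over wildtype and 3946 of 7289 in Pde6ccpfl1 over wildtype. In Pde6ccpfl1 over Cnga3-/- they numbered 1307 of 7850, so these counts of members are no result about the members. The recovery sum without Grk1 and Gucy2e had log2 ratios of 5.89 and 5.21 over wildtype, resting on 1 wildtype count. These genes were left out after their values were seen and held nearly all wildtype recovery counts. High ratios were thus fixed by that choice and are no support. The stricter well filter gave 1 member higher and 2 lower in Pde6ccpfl1 over Cnga3-/-, in place of 2 and 1. Of 7224 genes it gave 820 higher and 1122 lower, and numbers of members this small are no result about them. Unthinned, the share of wells with any member was 72.9% in Cnga3-/-, 86.9% in Pde6ccpfl1 and 46.2% in wildtype, and at 2500 counts it was 66% in Cnga3-/-. Without the top well position of each gene, 1 member was at least 2-fold higher in Pde6ccpfl1 over Cnga3-/-, in place of 2, beside 11.1% of all genes. Of the other values under these settings, 136 of gene groups stayed within their counting intervals or within 1.5 times the count, and 209 ratios of single genes stayed within their intervals. A lower bound against a wildtype count of 0 has no interval: 86 such bounds stayed above 0, but thinning brought them down in Cnga3-/- over wildtype to 0.30 for Gnat2, 0.56 for Gngt2, 0.98 for Rgs9, 0.56 for Pdc and -0.022 for Rcvrn, in place of 2.44, 2.58, 2.93, 2.02 and 2.02. Another 6 single-gene ratios left their intervals, such as Gnb3, with log2 ratios over wildtype of 1.30 in Cnga3-/- and 0.83 in Pde6ccpfl1 after thinning, and Grk1, at -1.13 and -1.42 under ribosomal scaling. None of the 10 genes had more than 43 counts in a library, which limits every ratio given here.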
